A study of Epimedium pubescens with 12 samples.

Results

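Ebr03G045770 and Ebr03G045780 are neighbouring genes on chromosome 3 of Epimedium pubescens that the deposited annotation describes as phosphate transporter PHO1 homolog 5 and PHO1 homolog 3. They were taken by their gene identifiers, which gave 2 genes of 53813 in the tables. The question was how their transcripts differed between phosphorus levels and between times in leaves. Seedlings grown in sand received nutrient solution with 0 mmol/L phosphate (-P) or 1 mmol/L phosphate (+P), and leaves were taken after 30 d, before visible damage, and after 90 d, when damage was visible. The groups, 30d -P and 30d +P at the early stage and 90d -P and 90d +P at the late stage, held 3 biological replicates each, which carried the letters A to C. The -P and +P solutions also differed in other salts, and leaves at 90 d were older than at 30 d, so that time and leaf age cannot be told apart. Leaves hold several cell types, and in such samples fewer cells of a type and less RNA per cell cannot be told apart either.

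PHO1 proteins export phosphate from cells. In Arabidopsis, PHO1 works mainly in the root, where it loads phosphate into the xylem for transport to the shoot. The proteins carry an SPX domain, which binds inositol pyrophosphates and so reports the phosphate state of the cell, and an EXS domain, which lies in the membrane part needed for export.

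The annotation split these domains between the neighbours. Ebr03G045770 lay at 371390145 to 371396481 of chromosome 3 on the minus strand, with a gene length of 2077 bases and an EXS domain but no SPX domain. Ebr03G045780 lay at 371424195 to 371432342 on the same strand, with a gene length of only 615 bases and an SPX domain but no EXS domain. A gap of 27.7 kb without an annotated gene separated them. Another PHO1 homolog 3, Ebr03G045790, followed 30.6 kb further on the same strand, at 371462925 to 371605199, and carried both domains. Positions are those of the deposited tables, whose genome build is not given in the sources used here. Among the 23 genes annotated as PHO1, 17 carried both domains, with gene lengths of 1233 to 2915 bases and a median of 2546, and Ebr03G045770 was the 1 gene with EXS alone. Ebr03G045780 was 1 of 3 genes with SPX alone. Whether the neighbours are parts of 1 gene that the annotation split was not tested, and values are given for each annotated gene. How reads shared between gene copies were counted is not stated, so values of single PHO1 genes are uncertain.

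Library totals ranged from 14756971 to 18153463 counts. Over all genes, replicates differed far beyond counting error (mean chi-square of 31.5 to 165 for each gene, against about 1 from counting alone). Leaf mesophyll markers were 56 genes of Rubisco small subunits and chlorophyll-binding proteins. They summed to 48398 to 80764 CPM (counts scaled to the same library size) in the 30 d libraries and to 23232 to 51816 CPM in the 90 d libraries. The 29 epidermis and guard cell genes summed to 1086 to 1480 CPM at 30 d and to 610 to 1523 CPM at 90 d.

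Ebr03G045780 was highest in 90d -P. Its CPM, scaled by the trimmed mean of M values (TMM), stood at 13.19 in A, 11.87 in B and 8.76 in C of 90d -P. In 90d +P it was 3.21 in A, 2.74 in B and 1.73 in C. The 90 d groups did not overlap, and the lowest -P library lay well above the highest +P library. At 30 d the CPM was 4.66 in A, 5.49 in B and 2.17 in C of 30d -P, and 3.16 in A, 5.47 in B and 9.55 in C of 30d +P. Here the groups overlapped, and 30d +P alone spanned most of the range of the gene. Group means fell in the order 90d -P (11.27 ± 2.28, SD, n = 3), 30d +P (6.06 ± 3.23), 30d -P (4.11 ± 1.73) and 90d +P (2.56 ± 0.76), and each neighbouring pair in this order overlapped. Counts behind these values were 32 to 217 per library.

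Ebr03G045770 also had its highest mean in 90d -P, with a wider spread. Its CPM was 15.38 in A, 18.44 in B and 5.49 in C of 90d -P, and it was 11.64 in A, 6.77 in B and 3.996 in C of 90d +P. Library C was the lowest in both 90 d groups, and the groups overlapped. In 30d -P the values were 6.03, 3.99 and 2.81, and in 30d +P they were 8.57, 7.35 and 9.35, for A, B and C. The 30 d groups did not overlap, with every -P library below every +P library. Group means fell in the order 90d -P (13.10 ± 6.77, SD, n = 3), 30d +P (8.42 ± 1.01), 90d +P (7.47 ± 3.87) and 30d -P (4.27 ± 1.63), and again each neighbouring pair overlapped. Counts were 44 to 303 per library. The SD within a group was 1.33 to 7.58 times the counting error for this gene and 1.99 to 5.003 times for Ebr03G045780. At the low end of this range, in 30d +P of Ebr03G045770, the SD was 11.97% of the mean and counting error 9.03%.

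**Figure D1:**
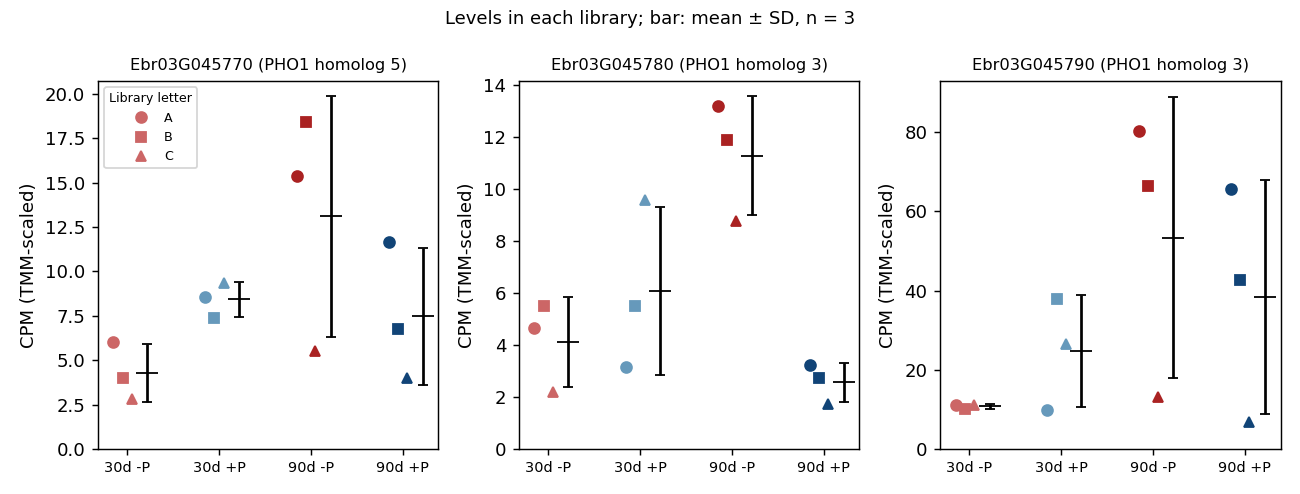
CPM (y axis, TMM-scaled, from 0) of Ebr03G045770, Ebr03G045780 and the next PHO1 gene, Ebr03G045790, in each of the 4 groups. Points are libraries with a symbol per letter, and bars are the mean ± SD of 3 libraries. The 90d -P libraries of Ebr03G045780 lie between 8.76 and 13.19, above all other groups but 1 library of 30d +P at 9.55.

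Phosphorus levels were first compared at 30 d. In edgeR's quasi-likelihood test over 24307 genes, with Benjamini-Hochberg adjustment, genes with an adjusted p up to 0.05 and a log2 fold change of 1 or more in either direction were called. The log2 fold change of 30d -P over 30d +P was -0.56 (SE 0.47, adjusted p = 0.864) for Ebr03G045780 and -0.98 (SE 0.50, adjusted p = 0.713) for Ebr03G045770. The value of Ebr03G045780 was -0.06 without 30d +P replicate C, -0.26 without 30d -P replicate C and -0.87 without 30d +P replicate A. Neither gene was called, and edgeR called 0.0% of all genes in this comparison. At an unadjusted p under 0.05 with the same fold minimum it took 1180 genes (4.85%), and DESeq2 on the 6 libraries called 569 (1.6%), neither member among the latter. Groups without overlap, as Ebr03G045770 had here, were found for 15.2% of all genes tested.

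At 90 d both genes had higher means in -P, and the difference was the larger for Ebr03G045780. The study had singled out Ebr03G045780 in this comparison, so its values are a description. Its log2 fold change of 90d -P over 90d +P was 2.14 (SE 0.49), a 4.39-fold difference, with an edgeR p of 0.0012 before adjustment and 0.549 after adjustment over all genes. This p ranked 52 among the 24307 genes. edgeR called 0.0% of all genes here, with 1065 (4.38%) at an unadjusted p under 0.05 and the fold minimum, and its smallest adjusted p was 0.081. DESeq2 on the 6 libraries called Ebr03G045780 (adjusted p = 0.000128), as it did 0.524% of all genes. For Ebr03G045770 the log2 fold change was 0.81 (SE 0.50, 95% interval -0.34 to 1.96, edgeR adjusted p = 0.92), and neither tool called it. This value was 0.46 without 90d -P replicate B, 0.51 without 90d +P replicate C and 1.29 without 90d +P replicate A. Groups of 3 did not overlap for 8.92% of all genes.

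Time was compared within each phosphorus level. Without phosphorus, the means of both genes were higher at 90 d than at 30 d, a comparison in which the study had named both. The study listed them there among genes above a much higher fold limit than the log2 minimum of 1 used here. The log2 fold change was 1.46 (SE 0.47, edgeR adjusted p = 0.0901) for Ebr03G045780 and 1.62 (SE 0.51, edgeR adjusted p = 0.0836) for Ebr03G045770. Both values lay below the study's higher limit. edgeR called neither, while 5.58% of all genes were called, 1.63% as higher at 90 d and 3.95% as lower. The 1356 calls behind this share were 55 to 1602 with 1 library left out (55 without 30d -P replicate B, 57 without 90d -P replicate B), 121 with the replicate block and 314 with edgeR on the 6 libraries. DESeq2 on the 6 libraries called both, with adjusted p of 0.0177 for Ebr03G045780 and 0.0434 for Ebr03G045770, against 9.28% of all genes. Ebr03G045780 did not overlap between these groups, as was the case for 33.3% of all genes, while Ebr03G045770 overlapped through library C of 90d -P. With phosphorus, Ebr03G045780 had a log2 fold change of -1.24 (SE 0.48, edgeR adjusted p = 0.158) and Ebr03G045770 one of -0.17 (SE 0.50, edgeR adjusted p = 0.887). Neither gene was called there by either tool, with 3.02% of all genes called by edgeR and 6.13% by DESeq2. Without 30d +P replicate C the value of Ebr03G045780 was -0.74, and that of Ebr03G045770 was -0.65 when 90d +P replicate A was left out and 0.12 when 90d +P replicate C was.

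Marker sums also differed between the times, without overlap for xylem and with overlap for phloem, root and senescence genes. The mesophyll sums given above reached lower at 90 d, with overlap, and those of epidermis and guard cells overlapped too. The 35 xylem genes summed to 792 to 2583 CPM in the 30 d libraries and to 29.6 to 256 CPM in the 90 d libraries, with 4 of them at 0 throughout. The 21 phloem genes, 1 of them at 0, summed to 155 to 446 CPM at 30 d and to 101 to 247 CPM at 90 d. The 11 root genes, 3 of them at 0, summed to 35.8 to 260 CPM at 30 d and to 11.1 to 80.5 CPM at 90 d. The 33 senescence genes, 26 of them at 0, summed to 6.86 to 15.9 CPM at 30 d and to 3.33 to 11.2 CPM at 90 d. Their part in the values of the PHO1 genes was not tested. Within 90 d, xylem sums were 29.6 to 256 CPM in -P and 31.0 to 185 CPM in +P, and their part there was not tested either.

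The effect of phosphorus at 90 d was compared with that at 30 d through the interaction. The interaction was 2.70 on the log2 scale (SE 0.67) for Ebr03G045780 and 1.79 (SE 0.71) for Ebr03G045770. The edgeR p was 0.0022 for the first and 0.0294 for the second before adjustment, and both adjusted p rounded to 1. The interaction contains the 90 d difference in which the study had singled out Ebr03G045780, so the values of this gene are a description. edgeR called 0.0% of genes, with 2.52% at an unadjusted p under 0.05 and the fold minimum, and DESeq2 on 12 libraries called 34 genes (0.09%), neither member among them.

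**Figure D2:**
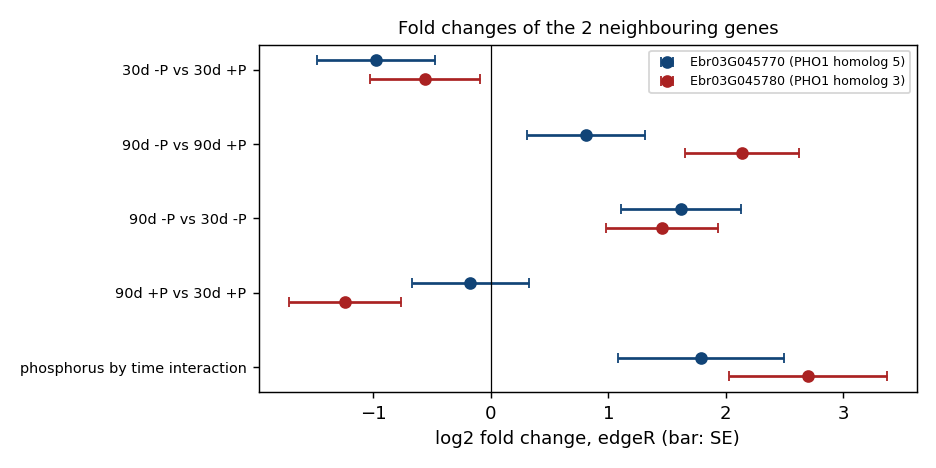
Log2 fold change (x axis) of both genes in the 4 comparisons and the interaction (y axis), with bars for edgeR's SE. The value of Ebr03G045780 in 90d -P vs 90d +P is 2.14, and that of Ebr03G045770 is 0.81.

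Whether the neighbours moved by the same amount was asked with FPKM, which takes gene length into account. FPKM of Ebr03G045780 exceeded that of Ebr03G045770 in 11 of 12 libraries, although its counts were lower in most. Where its counts were lower, this order rests on the annotated gene lengths of 615 and 2077 bases. The FPKM ratio of Ebr03G045780 to Ebr03G045770 was 2.90 in A, 2.17 in B and 5.39 in C of 90d -P, and 0.93 in A, 1.37 in B and 1.46 in C of 90d +P. These 90 d ratios did not overlap. The study had singled out Ebr03G045780 in this comparison, so the 90 d ratios and their p are a description. How often other gene pairs lacked overlap was not counted. At 30 d the ratio was 2.61, 4.65 and 2.61 in -P and 1.25, 2.52 and 3.45 in +P, and the groups overlapped. On the log2(FPKM + 0.1) scale the ratio was 1.39 higher in 90d -P than in 90d +P, with p = 0.1 in an exact two-sided permutation test, the smallest p that 3 against 3 allows. The difference was 0.48 at 30 d (exact p = 0.4), 0.06 for 90d -P against 30d -P (exact p = 0.9) and -0.84 for 90d +P against 30d +P (exact p = 0.3). With the same tests on the ratios to Ebr03G045790, 12 in all, the smallest adjusted p was 0.75.

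**Figure D3:**
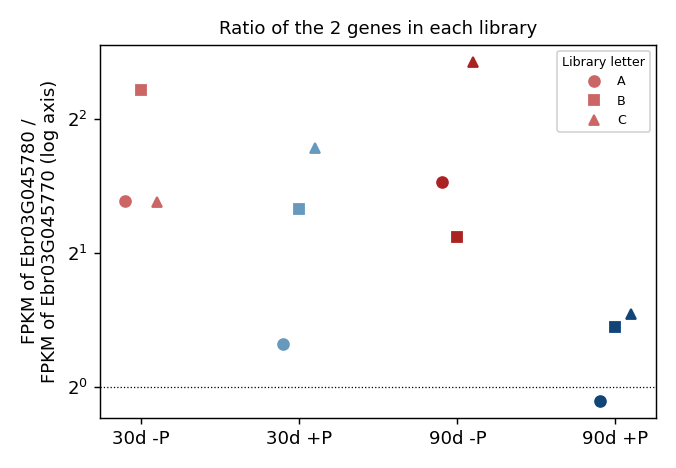
Ratio of the FPKM of Ebr03G045780 to that of Ebr03G045770 (y axis, log scale) in each library of the 4 groups, with a symbol per letter and a dotted line at 1. The 90d +P libraries lie at 0.93 to 1.46 and the 90d -P libraries at 2.17 to 5.39.

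Ebr03G045790, the next gene and singled out here after its values were seen, had a higher mean CPM than either member in all 4 groups. By mean FPKM it was slightly below Ebr03G045780 in 30d -P, at 6.37 against 6.61. The CPM of Ebr03G045790 was 80.34 in A, 66.46 in B and 13.07 in C of 90d -P, and 65.54 in A, 42.65 in B and 6.80 in C of 90d +P. Library C was again low in both groups. At 30 d it was 11.19, 10.07 and 11.03 in -P, a narrower spread than in either member, and 9.82, 37.79 and 26.44 in +P. Its log2 fold change was 0.48 (SE 0.79) for 90d -P over 90d +P and 2.31 (SE 0.83, edgeR adjusted p = 0.119) for 90d -P over 30d -P. Of the 20 genes nearest to the pair, 10 on either side, 8 had no counts and 5 passed edgeR's filter on low counts, and edgeR called none of these 5 in the 4 comparisons.

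The PHO1 family was read as a whole next. Of its 23 genes, 6 had no counts and 12 passed the filter. The most abundant was Ebr03G045300, a homolog 3 with both domains, at 32.88 to 91.62 FPKM over the 12 libraries. By mean FPKM, Ebr03G045780 ranked 4 and Ebr03G045770 ranked 9. edgeR called none of the 12 in any comparison. At an unadjusted p under 0.05 and the fold minimum it took 1 in 30d -P vs 30d +P (lower), 1 in 90d -P vs 90d +P (higher), and 1 in 90d +P vs 30d +P (lower), beside 4.85%, 4.38% and 13.2% of all genes. By the same limits it took 5 higher and 1 lower in 90d -P vs 30d -P, beside 5.98% and 10.5% of all genes (16.5% in all), and 3 higher in the interaction, beside 2.52%. The time comparison and the phosphorus comparison at 90 d share the 90d -P libraries. In 90d -P vs 90d +P, 11 of the 12 had a log2 fold change above 0, with a median of 0.47 against -0.0026 for all genes, and Ebr03G045780 was the 1 that DESeq2 called. With the pair left out, 9 of 10 were above 0, with a median of 0.45. In 90d -P vs 30d -P, 8 of the 12 were above 0, with a median of 1.31 against 0.03 for all genes. With the pair, which the study had named there, left out, 6 of 10 were above 0, with a median of 0.97. DESeq2 on the 6 libraries called 5 of the 12 there, all higher, beside 2.86% of all genes called higher: the pair, Ebr03G045790, Ebr03G045270 (2.14 by DESeq2) and Ebr03G045260 (1.59). That share is over the 34667 genes DESeq2 tested, while the 12 are among the 24307 that passed edgeR's filter, so the 2 are not on the same base. Ebr03G045300 stood at -0.17 (SE 0.29) in that comparison.

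**Figure D4:**
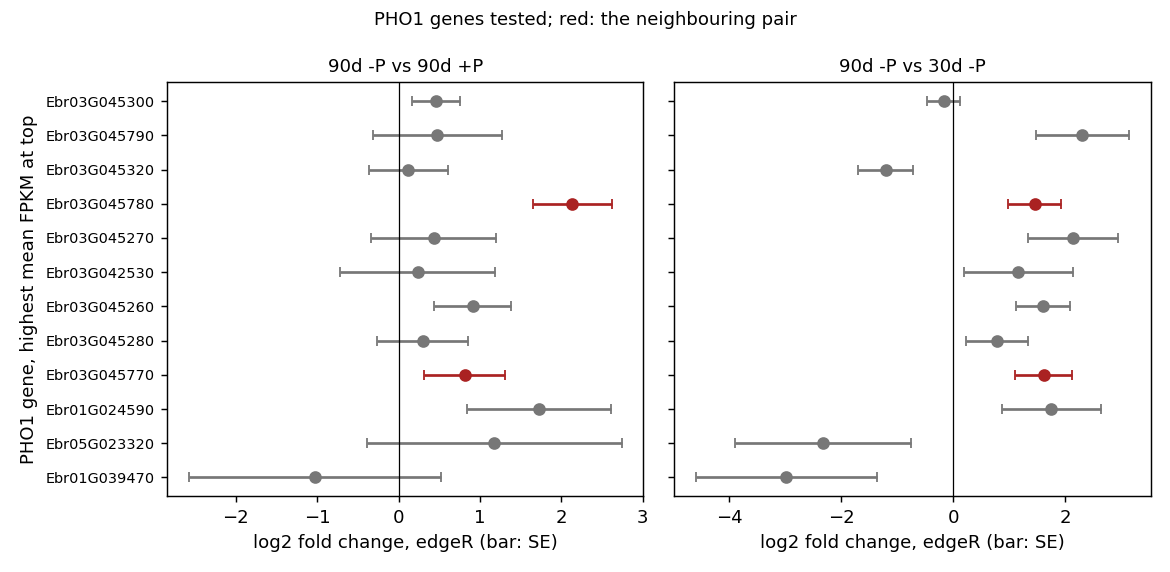
Log2 fold change (x axis, bars for edgeR's SE) of the 12 PHO1 genes tested, from the highest mean FPKM at the top, for 90d -P vs 90d +P and for 90d -P vs 30d -P. The neighbouring pair is in red, and Ebr03G045780 stands at 2.14 in the first panel and 1.46 in the second.

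Other phosphate genes were listed by annotation as SPX domain proteins, purple acid phosphatases (a family that frees phosphate from organic compounds) and PHT1 transporters (which take up phosphate). The SPX genes were annotated as SPX domain-containing proteins, as SPX domain-containing membrane proteins, or as SPX and EXS domain-containing proteins. Several phosphatases were annotated as probable inactive. Of 89 listed genes, 42 were tested. edgeR called 0 in either phosphorus comparison and 1 in each time comparison, a share of the 42 below the 5.58% and 3.02% of all genes called there. This was Ebr06G000490, annotated as SPX and EXS domain-containing protein 3, which was lower at 90 d, by -1.59 on the log2 scale without phosphorus (SE 0.31, edgeR adjusted p = 0.0236) and by -1.40 with it (SE 0.30, edgeR adjusted p = 0.038). Its CPM was 27.67 to 40.72 in 30d -P and 10.41 to 11.97 in 90d -P. Both calls were lost with the replicate block (0 of the list called). With 1 library left out, 0 of the list were called without 30d -P replicate A or B or 90d -P replicate B or C in the first comparison, and in 8 of 12 cases in the second. At an unadjusted p under 0.05 and the fold minimum, 3 of the 42 were lower in 30d -P vs 30d +P, beside 4.85% of all genes in either direction. By the same limits 4 were higher and 2 lower in 90d -P vs 90d +P, beside 1.61% and 2.77% of all genes. DESeq2 on the 6 libraries called 1 of the 42 higher and 1 lower there, beside 0.524% of all genes, and 3 higher and 3 lower in 90d -P vs 30d -P, beside 9.28%. Both shares are over all genes DESeq2 tested, which were more than edgeR's filter kept.

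The genes most like each member were ranked by Pearson's r of log2(CPM + 0.5) over the 12 libraries, which share groups and letters, so r is a description. For Ebr03G045770 the highest r was 0.95, with Ebr03G045260, a PHO1 homolog 3 with both domains. Ebr03G045260 had 23.22 CPM in A, 25.50 in B and 12.77 in C of 90d -P and 17.10 in A, 10.90 in B and 4.64 in C of 90d +P, with C again the lowest. On deviations from group means, r with the 5 genes most like Ebr03G045770 was 0.76 to 0.93, and 0.92 with Ebr03G045260. Next came Ebr02G017890 (lysine methyltransferase domain, r = 0.92), Ebr03G047410 (BAG family chaperone regulator 8, r = 0.89) and 2 unannotated genes of the authors' assembly, on chromosomes 3 (r = 0.89) and 5 (r = 0.88). These 2 were near the floor, with 4 to 77 counts per library on chromosome 3 and 0 to 19 on chromosome 5. For Ebr03G045780 the 5 highest were Ebr01G062120 (the DNA repair enzyme OGG1, r = 0.85), Ebr04G037070 (purine permease 1, r = 0.82), Ebr05G055140 (a DUF641 protein, r = 0.82), Ebr05G064890 (2-C-methyl-D-erythritol 2,4-cyclodiphosphate synthase of the plastid isoprenoid pathway, r = 0.81) and Ebr03G055350 (a CRAL/TRIO domain protein, r = 0.79). On deviations from group means these 5 had r of 0.43 to 0.71, with 0.47 for Ebr01G062120 and 0.43 for Ebr05G064890. Ebr03G055350 was also near the floor, with 1 to 46 counts per library. Between the members r was 0.64, which ranked 436 among 24306 genes for Ebr03G045770 and 92 for Ebr03G045780.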

How the data were processed

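RNA was sequenced from 12 leaf libraries. The submitters' processing notes name HISAT2 2.0.5, StringTie 1.3.3b and featureCounts 1.5.0-p3, and the authors deposited whole-number counts per gene and FPKM. The deposited FPKM equal counts per kilobase over a library size 0.887 to 1.17 times the total count. Handling of strand and of shared reads is not stated. The counts were tested in 1 fit of all libraries with edgeR 4.0.16 in R 4.3.3 (filterByExpr, TMM, robust quasi-likelihood, 8 residual degrees of freedom), with DESeq2 1.42.0 and limma 3.58.1 as alternatives. The SE of edgeR's fold changes was taken as their size divided by the root of F. DESeq2's independent filtering was set at 0.05, and the package default was tried after its results were seen. The FPKM ratio was tested in python 3.11.15 with scipy 1.17.1. Scripts were tested on simulated data. Same-lettered libraries did not deviate together (correlations -0.30 to 0.18), so the letters were not used as pairs. Members and lists were chosen with earlier results of these data known. Named were both members, PHO1 genes passing the filter, called phosphate genes, called neighbours and the 5 genes most like each member. Sequences were not used here.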

Additional observations from a re-analysis of the deposited data

How the results depend on the processing

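Over 25 alternatives, 230 of 244 values of both genes kept their direction and their side of the threshold. Ebr03G045780 became called in 90d -P vs 90d +P with DESeq2 on 12 or 6 libraries (2.13 in each, also with DESeq2's default filtering), and in 90d -P vs 30d -P with these (1.45) and limma-voom (1.24). Ebr03G045770 became called in 90d -P vs 30d -P with DESeq2 on 12 libraries (1.60) or 6 (1.61, also with default filtering), with limma-voom (1.60), and without both 90 d libraries of letter C (1.98), an alternative chosen after seeing the data. In 90d +P vs 30d +P its value turned to 0.12 without 90d +P replicate C and without both C libraries. Leaving out 1 library gave -0.65 to 0.12 there. For the log2 ratio in 90d -P vs 30d -P the same gave -0.30 to 0.34, with -0.07 without 30d -P replicate A, -0.08 without 30d -P replicate C and -0.30 without 90d -P replicate C.

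The replicate block gave 2.14 for Ebr03G045780 in 90d -P vs 90d +P (edgeR adjusted p = 0.876) and 1.58 for Ebr03G045770 in 90d -P vs 30d -P (edgeR adjusted p = 0.0872), and changed no call of either gene. With the block, the calls over all genes were 121 in 90d -P vs 30d -P and 10 in 90d +P vs 30d +P, and those of the phosphate list were 0 in both, from 1356, 734, 1 and 1.

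Counts over all genes moved with the tool. In 30d -P vs 30d +P they were 280 (DESeq2, 12 libraries), 569 (6 libraries, either filtering) and 388 (limma-voom), from 0. In 90d -P vs 90d +P they were 248, 184 and, with default filtering, 173 by DESeq2, and 2, 6 and 3 by limma on log2(FPKM + 1), on log2(FPKM + 0.1) and with FPKM of at least 1, from 0. In 90d -P vs 30d -P they were 3232, 3218 and 3198 by DESeq2, 2385 by limma-voom, 314 by edgeR on 6 libraries and 366 without both C libraries. In 90d +P vs 30d +P they were 2377, 2199 and 2184 by DESeq2, 2044 by limma-voom and 2 by edgeR on 6 libraries. The interaction gave 34 by DESeq2. Leaving out 1 library gave 0 to 1, 0 to 2, 55 to 1602 and 4 to 1424 in the 4 comparisons.

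Of the 23 PHO1 genes, DESeq2 called 1 in 90d -P vs 90d +P and 6 in 90d -P vs 30d -P under each setting. Of these 6, 1 lay outside edgeR's filter and was lower. On 6 libraries DESeq2 called 0.524% and 9.28% of all genes in these comparisons, and it tested more genes than edgeR's filter kept. Counts over all genes under other settings are given above. In 90d -P vs 30d -P limma-voom called 3 PHO1 genes, edgeR without both C libraries 2, and leaving out 1 library gave 0 to 1, from 0. Of the 89 genes of the phosphate list DESeq2 called 2 in 90d -P vs 90d +P, from 0, beside 0.524% of all genes on 6 libraries. In 90d -P vs 30d -P it called 6 (12 libraries) or 7, beside 9.28% of all genes on 6 libraries. There edgeR without both C libraries called 0, and leaving out 1 library gave 0 to 2. In 90d +P vs 30d +P DESeq2 called 4 (12 libraries) or 3, beside 6.13% of all genes on 6 libraries, and limma-voom called 3. No filter, both limma fits on FPKM without a minimum, edgeR on 6 libraries and edgeR without both C libraries gave 0 there. Leaving out 1 library gave 0 to 1. The cause of these differences was not tested.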
